A study of Mus musculus with 76 samples.

Results

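The genes described here are 9 genes of glucose production and glucose sensing, *Pck1*, *G6pc*, *Fbp1*, *Gckr*, *Pklr*, *Slc2a2*, *Pfkfb1*, *Pfkfb3* and *Foxo1*, chosen by symbol and read mainly in liver. All 9 had a row among the 16775 entries of the liver table and all 9 passed the filter on low values there (a mean normalized count of at least 10), which kept 11710 genes. In the 18964 entries of the visceral white adipose tissue (WAT) table, 6 of the 9 symbols were matched. *Pck1*, *Pfkfb1*, *Pfkfb3* and *Foxo1* passed the same filter in WAT, *Fbp1* and *Slc2a2* were below it, and no WAT values of *G6pc*, *Gckr* and *Pklr* were analysed here.

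The mice were C57BL/6 females with free access to food and drink, homozygous either for the ancestral allele of *Fnip2* (Fnip2 T/T) or for a knock-in allele made by CRISPR/Cas9 (Fnip2 C/C). *Fnip2* encodes a folliculin-interacting protein of the nutrient-sensing mTORC1 pathway, and the knock-in places a T-to-C change in its 3′ untranslated region together with a neighbouring G-to-C change made to block recutting, so that only C/C mice carried both substitutions and the effects of each cannot be told apart. Livers came from 5 C/C and 5 T/T mice and WAT from 4 C/C and 5 T/T mice, with both tissues from 6 of the 13 animals. The age of the sequenced mice is not given in the sources used here. RNA was read from the 3′ end of polyadenylated transcripts (QuantSeq 3′ mRNA-Seq FWD), and the recovered reads ranged from 5583041 to 7523200 per liver and from 4180209 to 6277644 per WAT library.

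The liver keeps blood glucose steady by taking glucose up after a meal and releasing it between meals. Phosphoenolpyruvate carboxykinase (*Pck1*), fructose bisphosphatase (*Fbp1*) and the catalytic subunit of glucose-6-phosphatase (*G6pc*) carry out steps of gluconeogenesis that bypass irreversible steps of glycolysis. FOXO1 and cAMP signalling activate *Pck1* and *G6pc* in fasting, and insulin represses them. On the sensing side, GLUT2 (*Slc2a2*) carries glucose across the hepatocyte membrane, the glucokinase regulatory protein (*Gckr*) holds glucokinase in the nucleus at low glucose, and the bifunctional enzymes of the PFKFB family set the level of the sugar bisphosphate that switches glycolysis on and gluconeogenesis off. Liver pyruvate kinase (*Pklr*) ends glycolysis and is a classic target of carbohydrate-responsive transcription.

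Promoter sequence is shown where a known hormone or glucose response motif was found, which was in *Pck1*, *G6pc*, *Gckr* and *Pfkfb3*. No link between these motifs and the genotype differences was tested. RefSeq (GRCm38.p6) held 14 promoter windows of the 9 genes, each reaching from 250 bases before to 50 after an annotated start. The windows below are 30 bases long and read 5′ to 3′ on the strand of the gene, with a searched motif in capitals.

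Pck1, chr2:173152969-173152998, plus strand, cAMP response element: aggcctgccccTTACGTCAgaggcgagcct

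G6pc, chr11:101367531-101367560, plus strand, insulin response core: ttttgtgtgccTGTTTTGctattttacgta

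Gckr, chr5:31297469-31297498, plus strand, insulin response core: gtagggggtggTGTTTTGagaggcagggtt

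Pfkfb3, chr2:11502126-11502155, minus strand, E-box: cacccttctctcCACGTGaaagggggctgg

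The motif in *Pck1* began 93 bases before the annotated start, those in *G6pc* and *Gckr* 174 and 83 bases before it, and that in *Pfkfb3* 53 bases before 1 of its 2 starts. The *Pfkfb3* and *Gckr* windows lie inside their annotated loci (chr2:11471430-11554071 and chr5:31297266-31327302), ahead of internal starts, and those of *Pck1* and *G6pc* precede their genes. Searched on both strands, TTACGTCA was in 0.499% of 32851 promoter windows of all genes, TGTTTTG in 6.28% and CACGTG, the core that carbohydrate-responsive and clock factors can bind, in 7.15%. The palindromic form TGACGTCA (1.79% of windows) and the forkhead core TGTTTAC (3.65%) were not in the 14 windows. These matches describe the letters of the windows only.

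Marker genes separated the tissues as labelled. The summed level of 7 hepatocyte markers, *Alb* and *Apoa1* among them, lay between 114507 and 145579 RPM (reads scaled to 1000000 per library) in the livers and that of the 4 with a WAT row between 6.46 and 54.1 in WAT. The summed level of the adipocyte markers with a liver row (4 of 8) was at most 24.5 RPM in liver, where all 8 together reached 16435 to 47273 in WAT. The WAT library of C/C mouse 593 stood apart, with 4691 RPM over 6 ovary genes against 6.88 to 19.6 in the other 8 WAT libraries, so the WAT results of the 9 genes, and the calls beside them, are given with and without it. In the liver table, as in the WAT table, the libraries with even RNA label numbers precede those with odd numbers. In liver each set holds both genotypes, and the sources used here do not say what this order follows. Values within these sets are given where they bear on a gene. In WAT, even numbers were all C/C and odd numbers all T/T, and the number and the genotype cannot be told apart. The level of *Fnip2*, which the edit does not remove, is no check of the genotype labels and was 155 ± 29.2 in C/C and 104 ± 33.2 in T/T livers (normalized counts, SD, n = 5 each, limma adjusted p = 1.00). Its unadjusted limma p was 0.0148 and its exact two-sided permutation p was 0.0159, and the genotypes overlapped.

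In liver, none of the 9 genes passed the test between the genotypes. All 9 had a higher mean log2 level in C/C than in T/T, though in *Fbp1* only by 0.019 with a sign that changed when 1 mouse was left out, and the differences were largest in *Pck1*, *G6pc* and *Pfkfb3*, at 1.82-, 1.60- and 1.53-fold. Of the 11710 genes tested, 0 (0.0%) passed at an adjusted p under 0.05 in limma, and 51.8% had a log2 fold change above 0. *Pck1*, *G6pc* and *Pfkfb3* had an unadjusted p under 0.05 in limma, and the same 3 had one in edgeR and in DESeq2, which also called 0 of the 9. Over all genes, 1.97% had an unadjusted p under 0.05 in limma. Without C/C mouse 591, the unadjusted limma p was 0.0765 in *Pck1*, 0.0627 in *G6pc* and 0.0738 in *Pfkfb3*, so these p values depended on single mice. With a term for even or odd RNA label number, the unadjusted limma p was 0.0525, 0.0441 and 0.0175 in the same order. The median log2 fold change of the 9 genes was 0.32, against 0.0072 over all genes tested. The adjusted p of each of the 9 was 1.00 in limma, and the 2 genotypes overlapped in every gene, as they did in all but 0.248% of genes tested.

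**Figure D1:**
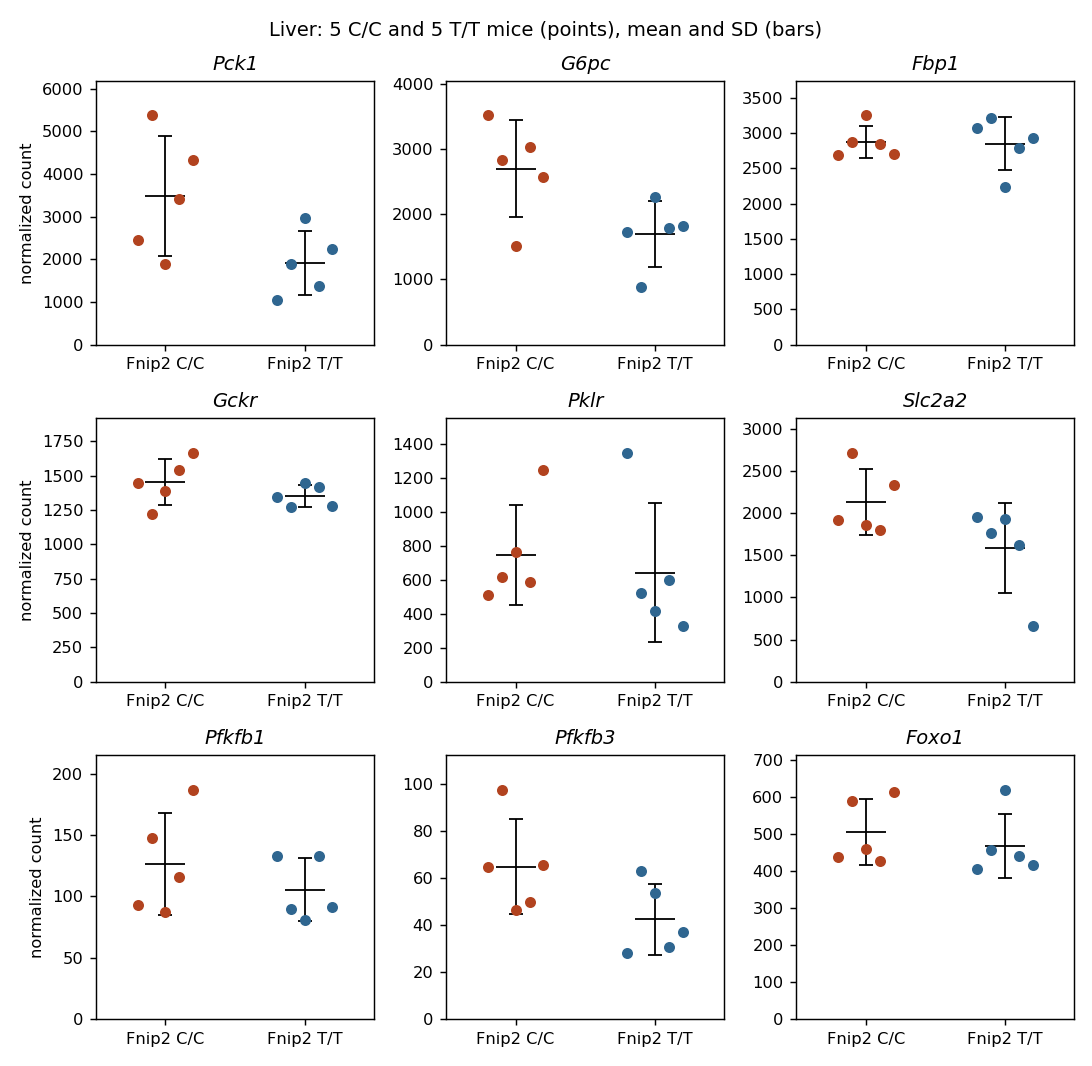
Normalized counts of the 9 genes in liver (y axes, each from 0) by genotype (x axes), with 1 point per mouse and the mean and SD as bars (n = 5 each). C/C and T/T points overlap in every panel, and the means stand furthest apart in *Pck1*, *G6pc* and *Pfkfb3*.

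*Pck1*, which commits oxaloacetate to glucose synthesis, had normalized counts of 2451, 5376, 1882, 3407 and 4337 in the C/C livers and 1050, 1894, 2960, 1375 and 2253 in the T/T livers. The 3 highest livers were C/C and the 2 lowest T/T, while the middle of the range held both genotypes. The means were 3491 ± 1409 and 1906 ± 750 (SD, n = 5 each), a log2 difference of 0.87 ± 0.35 (SE) with a 95% interval of 0.09 to 1.64, and the exact two-sided permutation p was 0.0635. The spread among mice of 1 genotype was wide, since the highest liver held 2.86 times the lowest in C/C and 2.82 times in T/T. The SD of *Pck1* within the genotypes (0.60 on the log2 scale) exceeded that of 92.6% of the genes tested.

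The *Pck1* difference was not even over the RNA label numbers. Among the 5 livers with odd numbers, the 3 C/C livers exceeded the 2 T/T livers by 1.84 on the log2 scale, and among the 5 with even numbers the mean of 2 C/C livers lay 0.12 below that of 3 T/T livers (a difference of -0.12). *Pfkfb3* had the same pattern, with 1.18 among odd and 0.13 among even numbers. In *G6pc* both sets gave similar differences, 0.68 among odd and 0.59 among even numbers. *Foxo1* (0.34 among odd and -0.13 among even numbers), *Pklr* (-0.23 and 0.59) and *Fbp1* (-0.063 and 0.099) had opposite signs in the sets. Whether the difference itself depends on the number was not tested.

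**Figure D2:**
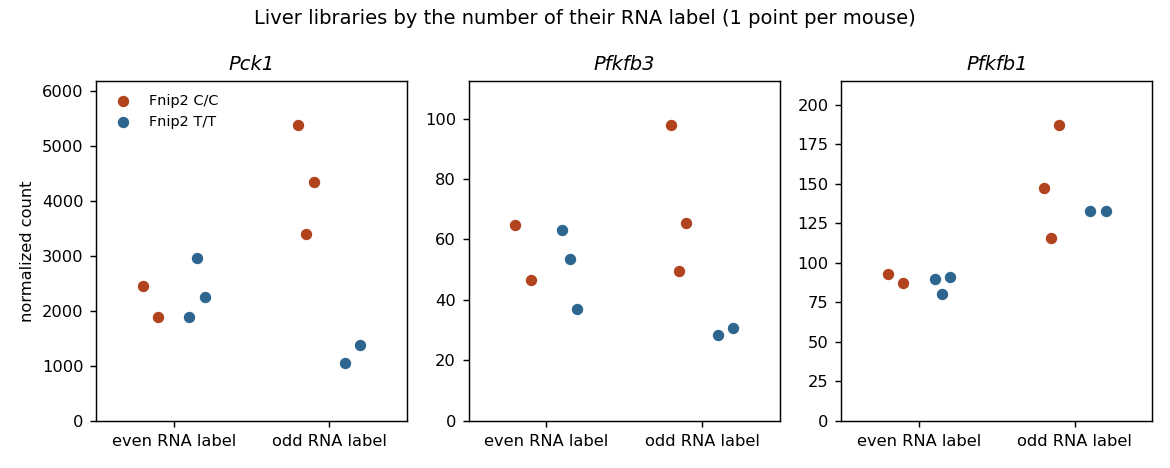
Normalized counts of *Pck1*, *Pfkfb3* and *Pfkfb1* in liver (y axes, from 0) by even or odd RNA label number (x axes), 1 point per mouse, coloured by genotype. In *Pck1* and *Pfkfb3* the C/C points stand above the T/T points among odd numbers only, and in *Pfkfb1* all even numbers (80.5 to 92.9) lie below all odd ones (116 to 187).

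*G6pc*, whose product releases free glucose, had counts of 3511, 2834, 1517, 3028 and 2569 in C/C and 1724, 880, 2269, 1788 and 1818 in T/T. Of the C/C livers, 4 lay above every T/T liver, and that of C/C mouse 592 lay below 4 of the 5 T/T livers. The means were 2692 ± 742 and 1696 ± 504 (SD, n = 5 each), with a log2 difference of 0.68 ± 0.27 (SE), a 95% interval of 0.10 to 1.26 and an exact permutation p of 0.0635. *Fbp1*, which acts between these enzymes in the same pathway, had means of 2871 ± 229 and 2848 ± 378 (SD, n = 5 each). It ranged from 2684 to 3250 in C/C and from 2231 to 3209 in T/T, and its log2 difference of 0.019 had an interval of -0.24 to 0.28. *Fbp1* was among the steadier genes, with a within-genotype SD that exceeded that of 11.7% of genes.

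Among the genes of glucose entry and sensing, *Slc2a2* had counts of 1914, 2719, 1864, 1801 and 2335 in C/C and 1958, 1770, 1936, 1617 and 664 in T/T livers. The 2 highest livers were C/C, and T/T mouse 659 had less than any other liver. That liver also had the lowest summed log2 level of 7 pericentral hepatocyte markers (74.9, against 80.0 to 84.4 in the other 9) and the highest of 7 periportal ones (85.1, against 79.9 to 83.8), and the part of this in its *Slc2a2* level was not tested. The log2 difference of 0.50 ± 0.27 (SE, exact permutation p = 0.111) was 0.21 without that mouse. *Gckr* varied least, with 1218 to 1667 in C/C and 1269 to 1447 in T/T, and its SD within the genotypes exceeded that of 4.84% of genes. Its log2 difference was 0.10, with an interval of -0.14 to 0.34, so the data bound any *Gckr* difference more tightly than that of *Pck1*.

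*Pklr* had counts of 509, 615, 767, 589 and 1249 in C/C and 1349, 521, 416, 601 and 328 in T/T livers. Each genotype held 1 liver far above the rest, from C/C mouse 639 and T/T mouse 607, and the remaining 8 lay between 328 and 767. The log2 difference was 0.32 ± 0.39 (SE), with an interval of -0.57 to 1.21. It was 0.12 without C/C mouse 639, 0.13 without T/T mouse 659 and 0.64 without T/T mouse 607. The within-genotype SD of *Pklr* exceeded that of 94.6% of genes, the highest share of the 9 in liver. T/T mouse 607 had the most *Pklr* and the least *Pck1* and *Foxo1* of the 10 livers.

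The PFKFB genes were read at low depth in liver, with 66 to 177 reads per library for *Pfkfb1* and 28 to 108 for *Pfkfb3*. *Pfkfb3*, an isoform with high kinase activity that favours glycolysis, had counts of 64.9, 97.7, 46.5, 49.7 and 65.5 in C/C and 28.3, 63.1, 53.6, 30.7 and 37.1 in T/T. All 5 C/C livers were above the T/T median and all 5 T/T livers below the C/C median, yet the ranges overlapped. The log2 difference was 0.61 ± 0.24 (SE), with an interval of 0.103 to 1.125 and an exact permutation p of 0.0873.

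*Pfkfb1*, the isoform of liver and muscle, had counts of 92.9, 148, 87.5, 116 and 187 in C/C and 133, 89.8, 80.5, 133 and 91.0 in T/T livers. Its log2 difference of 0.23 ± 0.21 (SE, exact permutation p = 0.413) was smaller than the spread within either genotype, and it was 0.075 without C/C mouse 639 and 0.099 with a term for the RNA label number. The livers separated instead by the RNA label number, with 80.5 to 92.9 in the 5 even and 116 to 187 in the 5 odd libraries, each set holding both genotypes. Of the 9 genes, *Pfkfb1* alone did not overlap between these sets, as did 0.999% of all genes tested, against 0.248% between the genotypes. Within the sets, C/C minus T/T was 0.052 among even and 0.15 among odd numbers on the log2 scale.

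*Foxo1*, the forkhead factor that insulin excludes from the nucleus, had counts of 439, 589, 461, 426 and 616 in C/C and 407, 458, 621, 440 and 417 in T/T livers. The highest liver was that of T/T mouse 657, and the log2 difference was 0.11 ± 0.14 (SE), with an interval of -0.19 to 0.42. It was 0.038 without C/C mouse 639 and 0.22 without T/T mouse 657. The level of *Foxo1* mRNA does not measure the activity of its protein, which is set by phosphorylation.

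Cell type markers overlapped between the genotypes in liver. The summed level of hepatocyte markers was 114507 to 133169 RPM in C/C and 116198 to 145579 in T/T livers, with 0 of 7 called. Periportal hepatocyte markers, from the zone in which gluconeogenesis is most active, reached 3888 to 5003 in C/C and 3159 to 5624 in T/T, and pericentral markers 3497 to 6452 and 2439 to 5239, with 0 of 7 called in each list. Markers of macrophages and Kupffer cells (282 to 467), endothelial cells (204 to 291), stellate cells and fibroblasts (238 to 401) and mesothelial cells (24.6 to 35.0) also overlapped, with none called. In bulk tissue, fewer cells of a type and less RNA per cell cannot be told apart.

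The 9 genes were compared pairwise over the 10 livers, which gave 36 correlations of log2 levels. After Benjamini-Hochberg adjustment, 0 of the 36 had a p under 0.05, and 4 had an unadjusted Pearson p under 0.05. The closest pair was *Pck1* and *Pfkfb3*, with a Pearson r of 0.84 (permutation p = 0.00325, adjusted p = 0.117) and a Spearman rho of 0.83 (permutation p = 0.00467, adjusted p = 0.168). Without the 2 livers furthest from the median of *Pck1*, r was 0.61 over 8 livers, and with the mean of each genotype subtracted it was 0.74 over 10. *Pck1* and *G6pc* had an r of 0.58 and a rho of 0.73 (Pearson permutation p = 0.0768, adjusted p = 0.431), with an r of 0.32 after the genotype means were subtracted. The Spearman permutation p of this pair was 0.0204 (adjusted p = 0.313). *Pck1* and *Foxo1* had an r of 0.71 and a rho of 0.52 (Pearson permutation p = 0.0240, adjusted p = 0.323). *Pklr* and *Pfkfb1* had an r of 0.69 and a rho of 0.62 (Pearson permutation p = 0.0269, adjusted p = 0.323), which fell to 0.41 over 8 livers. *G6pc* and *Fbp1*, 2 enzymes of the same route, had an r of -0.56 and a rho of -0.71 (Pearson permutation p = 0.0951, adjusted p = 0.431). Their Spearman permutation p was 0.0261 (adjusted p = 0.313), and their r was -0.76 after the genotype means were subtracted. The sets of even and odd RNA labels hold 5 livers each, too few for a correlation within them.

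The genes whose liver pattern was most like each of the 9, by Pearson r of log2 levels over 10 livers after subtraction of the genotype means, are given as a description. For *Pck1* they were *Mbd1* (0.94), *Tmtc2* (0.92) and *Gm42551* (0.91). For *G6pc* they were *St3gal2* (0.96), *Arhgap10* (0.92) and *Ocel1* (0.91). *Pkd2*, *Akirin1* and *1600012H06Rik* (0.93 to 0.94) were closest to *Fbp1*, and *Abca2*, *Mars1* and *Fastkd2* (0.95 to 0.96) to *Gckr*. For *Pklr* they were *Aldh1a7* (0.97), *Entpd6* and *Cyp3a63-ps* (both 0.94), the last a pseudogene that may share reads with its family. *Pgap6*, *Nxpe2* and *Mup18* (0.92 to 0.94) were closest to *Slc2a2*, *Ahcy*, *Ido2* and *Hspa9* (0.92 to 0.94) to *Pfkfb1*, *Hykk*, *Luc7l3* and *Rapgef4* (0.92 to 0.94) to *Pfkfb3*, and *Safb2*, *Ctcflos* and *Kat14* (0.91 to 0.93) to *Foxo1*. None of these 27 places was taken by another of the 9 genes, and with 11710 genes over 10 livers, high values of r arise for any gene.

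Around the 9 genes, 93 further genes of glucose metabolism in 5 lists were examined, of which 83 were tested in liver. None passed the limma test, and 1 had an unadjusted p under 0.05, *Ppp1r3g*, a glycogen-targeting subunit of protein phosphatase 1. It had 6.38 to 64.4 normalized counts in C/C and 0.928 to 12.2 in T/T livers, a log2 difference of 2.43 with a limma p of 0.00105 and an adjusted p of 1.00. The lists of carbon entry and export (18 tested), transcriptional control (17) and glycogen (17) had median log2 differences of 0.011, 0.028 and 0.0062, against 0.0072 over all genes. Those of glucose sensing (17 tested) and of hormone signals and FOXO1 targets (14) had medians of 0.13 and 0.015.

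The liver genes with the lowest p in each of these lists are described here, and they were picked by that p. The glucose-6-phosphate transporter *Slc37a4*, which works with *G6pc*, had 804 ± 284 in C/C and 630 ± 137 in T/T (SD, n = 5 each), and glycerol kinase *Gk* 271 ± 52.2 and 299 ± 30.1. *Igfbp1*, a FOXO1 target repressed by insulin, reached 971 to 4235 in C/C and 140 to 1587 in T/T, and *Angptl4*, a fasting-induced lipase inhibitor, 207 to 709 and 24.1 to 1156. *Txnip*, a glucose-induced gene, had 237 ± 36.9 and 196 ± 32.2, and *Hk2*, a hexokinase, 36.7 ± 7.01 and 29.0 ± 11.3. The forkhead factors *Foxo3* (240 ± 51.1 and 198 ± 39.3) and *Foxa2* (355 ± 115 and 409 ± 57.3) and the glycogen-targeting *Ppp1r3c* (627 ± 315 and 940 ± 322) completed the set. In limma, each had an adjusted p of 1.00 and overlapped between the genotypes.

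In WAT, *Pfkfb1* was lower in C/C than in T/T, and it was the only 1 of the 4 tested genes to pass. All 4 had a log2 fold change below 0, with a median of -1.22, against 0.019 over all 12798 genes tested. In WAT 32.1% of all genes passed an adjusted p under 0.05 in limma, and 17.0% of all genes passed and were lower in C/C, so that 1 of 4 is near the background. edgeR and DESeq2 also called *Pfkfb1* alone.

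*Pfkfb1* in WAT had normalized counts of 84.7, 31.8, 48.8 and 49.2 in C/C and 177, 114, 131, 191 and 147 in T/T. Every C/C library was below every T/T library, which held for 13.8% of all genes tested in that direction. The means were 53.6 ± 22.2 (SD, n = 4) and 152 ± 32.1 (SD, n = 5), a 2.92-fold lower level in C/C. The log2 difference was -1.55 ± 0.27 (SE), with an interval of -2.12 to -0.97, a limma adjusted p of 0.00164 and an exact permutation p of 0.00794, the smallest that 126 groupings allow. It was -1.33 without C/C mouse 593 (limma adjusted p = 0.00386). The C/C WAT libraries were also those with even RNA label numbers, and the T/T ones those with odd numbers. In liver, even numbers were likewise below odd ones in *Pfkfb1* (80.5 to 92.9 and 116 to 187). Genotype and label number therefore cannot be told apart in this WAT difference.

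*Pfkfb3* in WAT had 782, 145, 983 and 718 in C/C and 1494, 960, 1991, 753 and 1169 in T/T. Each C/C library was below the T/T median, and the lowest was that of mouse 593. The log2 difference of -1.17 ± 0.49 (SE) had a limma adjusted p of 0.0846 and was -0.55 without that mouse (adjusted p = 0.159).

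*Pck1*, which in adipocytes serves glycerol synthesis for fat storage, had 231, 26.2, 243 and 976 in C/C and 1170, 111, 306, 445 and 1360 in T/T. The libraries spanned 37.2-fold within C/C and 12.3-fold within T/T, and the within-genotype SD exceeded that of 99.0% of genes tested in WAT. The log2 difference of -1.27 ± 1.07 (SE) had an interval of -3.70 to 1.16 and a limma adjusted p of 0.393, and it was -0.32 without mouse 593 (adjusted p = 0.817).

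*Foxo1* in WAT had 459, 989, 560 and 405 in C/C and 788, 661, 777, 764 and 769 in T/T. The T/T libraries lay close together, and 3 of the 4 C/C libraries were below all of them, while that of mouse 593 was above all of them. The log2 difference of -0.40 ± 0.23 (SE) had a limma adjusted p of 0.203. Without mouse 593 it was -0.67 with an adjusted p of 0.0148, so the call depended on 1 library.

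**Figure D3:**
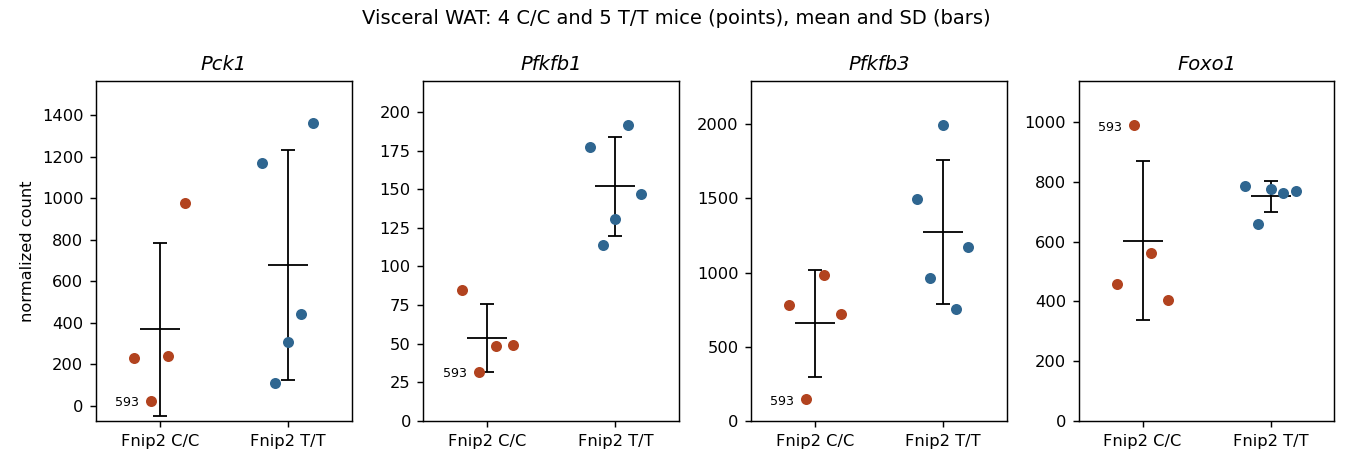
Normalized counts in visceral WAT (y axes) by genotype (x axes) for the 4 genes tested there, with 1 point per mouse and the mean and SD as bars (n = 4 C/C and 5 T/T). Only *Pfkfb1* has no overlap between the genotypes, and C/C mouse 593, marked by its number, is lowest in *Pck1*, *Pfkfb1* and *Pfkfb3* and highest in *Foxo1*.

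The hepatic genes *Fbp1* and *Slc2a2* were near 0 in WAT, with 0 to 15 and 0 to 6 reads per library. *Fbp1* had 2.24 ± 1.71 normalized counts in C/C (SD, n = 4) and 4.58 ± 6.31 in T/T (SD, n = 5), the latter from mice 607 and 658 alone, as the other 3 T/T libraries had 0 reads. *Slc2a2* had 1.58 ± 1.26 and 2.71 ± 2.48. In RPM, a scale on which the separately normalized tissues can be set side by side without a test, *Pck1* reached 514 ± 209 in C/C and 285 ± 115 in T/T livers, against 75.3 ± 85.0 and 152 ± 125 in WAT. *Pfkfb3* had the opposite order, with 9.62 ± 3.22 and 6.37 ± 2.39 in liver against 135 ± 72.3 and 280 ± 101 in WAT. *Foxo1* was at 74.7 ± 12.4 and 69.7 ± 12.9 in liver and at 130 ± 67.4 and 167 ± 18.2 in WAT, and *Pfkfb1* at 18.5 ± 5.50 and 15.6 ± 3.32 against 11.1 ± 3.98 and 34.0 ± 9.19 (SD, n = 5, 5, 4 and 5 in that order).

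Of 8 adipocyte markers, 5 were called lower and 0 higher in C/C WAT by limma, *Adipoq*, *Plin1*, *Fabp4*, *Lep* and *Retn*. Over all genes tested in WAT, 17.0% were called lower. *Cidec* (-0.19, limma adjusted p = 0.650) and *Plin4* (-0.32, 0.479) did not pass, nor did *Cfd*, which had a log2 difference above 0 (0.52, 0.325). Without C/C mouse 593, *Fabp4* lost its call (limma adjusted p = 0.0697) and the other 4 kept theirs. *Plin1*, a lipid droplet coat protein, had 472 to 1809 in C/C and 2847 to 4253 in T/T (log2 difference -1.65, adjusted p = 0.00385). The summed RPM of the 8 overlapped (16435 to 47273 and 22615 to 46992), being dominated by *Cfd*, whereas their summed log2 levels did not (91.4 to 103.1 in C/C and 104.3 to 108.5 in T/T). With this sum as a term in the fit, an alternative added after the data were seen, the log2 difference of *Pfkfb1* was -0.94 with a limma adjusted p of 0.118, and -1.01 without C/C mouse 593 (adjusted p = 0.272). As the sum itself separates the genotypes, the 2 terms cannot be told apart in these libraries.

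Other cell type markers moved less evenly in WAT. The counts below stand against 32.1% of all genes called in limma there, and 17.0% called lower in C/C. Endothelial markers summed to 502 to 676 RPM in C/C and 599 to 957.7 in T/T (1 of 5 called higher and 2 lower), fibroblast markers to 1337 to 2603 and 1812 to 2687 (1 higher and 1 lower of 5), and macrophage markers to 153 to 445 and 174 to 313 (2 lower of 3). Mesothelial markers (81.9 to 241 and 55.2 to 188) had none called, and kidney tubule markers (14.5 to 73.8 and 3.17 to 26.1) had 1 of 3 called higher. The 4 hepatocyte markers with a WAT row summed to 6.46 to 26.2 in C/C and 31.9 to 54.1 in T/T, a sum carried by *Alb* (called lower, log2 difference -1.68), while *Apoa1* had a log2 difference of 1.37 (limma adjusted p = 0.376) and the summed log2 levels of the 4 overlapped (7.16 to 13.4 and 7.47 to 15.2). Without C/C mouse 593, none of the marker calls in this paragraph was lost. The part of these cell types in the WAT results was not tested.

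Of the 93 further glucose genes, 75 were tested in WAT and 22 were called in limma, 6 higher and 16 lower in C/C, which is 29.3% against the 32.1% over all genes. With the term for adipocyte markers 1 of the 75 was called, *Tkfc*, and 14 were called when C/C mouse 638 or T/T mouse 607, 657 or 658 was left out. Their median log2 difference was -0.24. In the list of glucose sensing and the glycolytic switch (17 tested, median -0.51), *Hk2*, *Mlxip*, *Pfkfb4* and *Tkfc* were lower and *Pfkm* higher. *Tkfc*, a triose kinase of fructose breakdown, had 12.9 ± 2.96 and 52.0 ± 5.42 (adjusted p = 0.000615), and the muscle phosphofructokinase *Pfkm* 186 ± 57.0 and 71.9 ± 6.23 (adjusted p = 0.00138), both without overlap (SD, n = 4 and 5). *Pfkfb4*, a further kinase of the PFKFB family, was called lower in C/C, as were *Pfkfb1* and 17.0% of all genes tested. *Pfkfb3* was not called. With the term for adipocyte markers, *Pfkfb4* lost its call (limma adjusted p = 0.0702).

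The list of hormone signal genes and fasting or FOXO1 target genes gave 5 lower and 0 higher of 13 tested (median -0.52), *Akt1*, *Akt2*, *Angptl4*, *Irs1* and *Trib1*. Over all genes tested in WAT, 17.0% were called lower in C/C. *Akt2*, the insulin-signalling kinase of fat and liver, had 146 ± 95.3 in C/C and 631 ± 157 in T/T (log2 difference -2.34, limma adjusted p = 0.00174), and the insulin receptor substrate *Irs1* 161 ± 47.7 and 266 ± 41.3 (limma adjusted p = 0.0155). Among 11 regulators of gluconeogenesis (median -0.28), *Klf15* (log2 difference -2.002, limma adjusted p = 0.0109) and *Cebpb* (-0.81, 0.0412) were lower and 0 higher. In carbon entry and export (16 tested, median -0.20), the mitochondrial pyruvate carrier *Mpc2* (-1.84, limma adjusted p = 0.00683) and *Gpt2* (-0.74, 0.0345) were lower and *Pck2* and *Slc16a1* higher. In the glycogen list (18 tested, median -0.0057), *Gys2* (-2.46, limma adjusted p = 0.0103), *Ppp1r3b* (-1.89, 0.00572) and *Ugp2* were lower and *Gys1*, *Gsk3b* and *Phkb* higher. Without C/C mouse 593, 18 of the 75 genes were called, 14 of them among the 22, and *Pck2*, *Gpt2*, *Slc16a1*, *Cebpb*, *Hk2*, *Ugp2*, *Trib1* and *Angptl4* lost their calls. Calls were gained by *Insr*, higher in C/C (log2 difference 0.66, limma adjusted p = 0.0275), and by *Got1*, *Got2* and *Sgk1*, lower. The list of hormone signals and FOXO1 targets then had 1 higher and 4 lower. That of carbon entry and export had 0 higher and 3 lower.

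The genotype difference itself was compared between the tissues, as WAT minus liver, in a fit of all 19 libraries over 10404 genes. *Pfkfb1* (-1.78 ± 0.36 on the log2 scale, SE, limma adjusted p = 0.00114) and *Pfkfb3* (-1.79 ± 0.60, adjusted p = 0.0322) differed, which makes 2 of the 4 genes against 29.2% of all genes tested. *Pck1* had the widest error (-2.14 ± 1.16, adjusted p = 0.177), and *Foxo1* had -0.52 ± 0.28 (adjusted p = 0.166). Without C/C mouse 593 the values were -1.56, -1.16, -1.19 and -0.78 for *Pfkfb1*, *Pfkfb3*, *Pck1* and *Foxo1*, with limma adjusted p of 0.00273, 0.0326, 0.363 and 0.0125. Restricted to the 6 mice that gave both tissues, with the mouse as a block, *Pfkfb1* had -1.21 (limma adjusted p = 0.0876) and *Pfkfb3* -0.94 (adjusted p = 0.229), and neither passed with 2 C/C and 4 T/T mice. *Pfkfb3* also lost its call when C/C mouse 591 or T/T mouse 607, 609, 658 or 659 was left out (limma adjusted p of 0.0503 to 0.0920). In these contrasts too, genotype and RNA label number cannot be told apart in the WAT libraries.

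**Figure D4:**
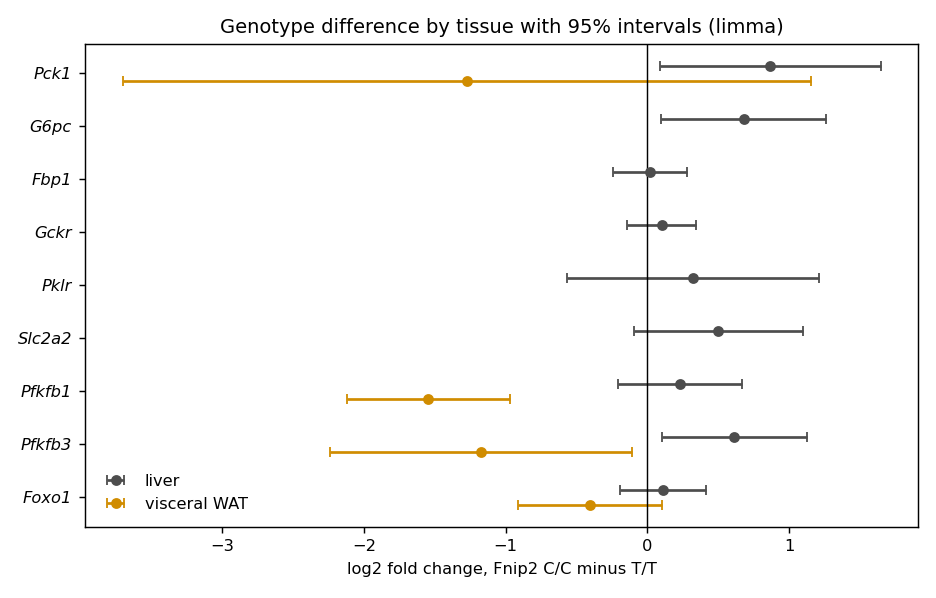
Log2 fold change of C/C over T/T (x axis) with its 95% interval from limma for each gene (y axis), in liver (grey) and visceral WAT (orange). All 9 liver points lie above 0, and the 4 WAT points lie below it, with only the interval of *Pfkfb1* far from 0.

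In the 6 mice with both tissues, each tissue was normalized separately. C/C mouse 638 had 116 normalized counts of *Pfkfb1* in liver and 49.2 in WAT, and C/C mouse 590 had 92.9 and 84.7. In the 4 T/T mice, WAT held 177, 114, 191 and 147 where liver held 133, 89.8, 80.5 and 133 (mice 607, 608, 657 and 658). On the RPM scale, *Pfkfb1* in WAT was above liver in all 4 T/T mice (24.8 to 44.5 against 11.8 to 19.4), above it in C/C mouse 590 (16.7 against 14.2) and below it in C/C mouse 638 (10.05 against 16.5), with no test. For *Pck1*, mice 607 and 658, with the lowest liver values (1050 and 1375), had the highest WAT values (1170 and 1360) of the 6. Against that order, mouse 638 had the highest liver value (3407) and 976 in WAT, and mouse 608 (1894 in liver) had the lowest WAT value (111). No relation between the tissues was tested for *Pck1*.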

How the data were processed

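Total RNA of 19 libraries (250 ng per liver and 500 ng per WAT sample) was converted to 3′ end libraries (QuantSeq FWD) and read on an Illumina NextSeq. The labels list 76 records, 4 runs for each mouse and tissue, and samples were grouped by the tissue and genotype in their labels. For each tissue, the authors deposited a table of normalized counts, a signal in which read counts were divided by a library's size factor, with the runs combined and the tissues normalized separately. The submitters' processing notes name FastQC 0.11.9, HISAT2, SAMtools 1.12, HTSeq, DESeq2 and the build GRCm39. In the WAT table, 1 column that matched no label was not used. Dividing by the smallest step of each library gave whole reads for 100% of values (tolerance 0.01), and these count reads, not independent molecules.

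Tests used log2(value + 1), and fold changes are on that scale, which understates the change of low genes. Genes with a mean of at least 10 were tested per tissue with limma 3.58.1 (R 4.3.3, trend and robust options) with genotype as the only term, and calls have a Benjamini-Hochberg adjusted p under 0.05 over all genes tested. The interaction was fitted over all 19 libraries, without a block. The same mouse links both tissues in 6 animals, and the correlation of their deviations over genes lay between -0.203 and 0.156. Single genes were also compared by exact two-sided permutation (252 groupings in liver and 126 in WAT). Correlations over livers used 100000 permutations. The fits were tested on simulated data.

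Alternatives were edgeR 4.0.16 and DESeq2 1.42.0 on the recovered reads, pseudocounts of 0.5 and 10, no filter or a minimum mean of 50, equal library totals, library weights, a term for the lower against the higher range of mouse numbers, each mouse left out, and, added after the data were seen, terms for RNA label parity and for adipocyte markers (the latter also without C/C mouse 593). The 9 genes and the gene lists were chosen with earlier results of these data known. The genes named are the 9, the 2 genes of each list with the lowest p in each tissue, and the 3 genes most like each of the 9. Other list genes that passed in WAT and the highest or lowest mice were named after their values were seen. Promoter sequences and their coordinates come from RefSeq (GRCm38.p6) and were not set against coordinates of GRCm39.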

Additional observations from a re-analysis of the deposited data

Results flagged for a closer look

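In 4 of the 26 groups of mice checked, 1 library lay far from the others of its genotype, where chance gives about 1 in 20. T/T mouse 607 had 1349 normalized counts of *Pklr* in liver against 328 to 601 in the other 4 T/T livers. T/T mouse 659 had 664 of *Slc2a2* in liver against 1617 to 1958, and T/T mouse 657 had 621 of *Foxo1* in liver against 407 to 458. In WAT, T/T mouse 608 had 661 of *Foxo1* against 764 to 788 in the other T/T mice.

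The genotype difference differed between the tissues in 2 of the 4 genes tested by the interaction term of limma, against 29.2% of all genes. For *Pfkfb1* it was -1.78 on the log2 scale (adjusted p = 0.00114). In WAT its 4 C/C libraries all lay below every T/T library, as held for 13.8% of all genes tested. For *Pfkfb3* it was -1.79 (adjusted p = 0.0322), with all 4 C/C WAT libraries under the T/T median and all 5 C/C livers above it. In the 6 mice with both tissues, neither gene passed (limma adjusted p of 0.0876 and 0.229). *Pfkfb3* also lost its call without C/C mouse 591 or T/T mouse 607, 609, 658 or 659. In WAT, the genotype cannot be told apart from the RNA label number, which also separated the *Pfkfb1* values in liver.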

How the results depend on the processing

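In liver, 0 of the 9 genes and 0 of the 83 tested list genes passed under each alternative run, and 8 of the 9 genes kept a log2 fold change above 0 in all of them. *Fbp1* changed sign with a term for mouse numbers (-0.014), without C/C mouse 592 (-0.026) and without T/T mouse 657, with a range of -0.066 to 0.065 over the mice left out. In WAT, the count of the 4 genes called was 1 to 2 when 1 mouse was left out, and 0 with a term for adipocyte markers, where *Pck1* (0.39) and *Pfkfb3* (0.47) changed sign, *Foxo1* had -0.89 (limma adjusted p = 0.107) and 1 of the 75 tested list genes remained called. With that term and C/C mouse 593 left out, 0 of the 4 and 0 of the 75 were called and *Pfkfb3* had 0.14. Leaving out 1 mouse gave 14 to 26 of these list genes, against 22, with 14 without C/C mouse 638 or T/T mouse 607, 657 or 658. In the interaction, 1 to 3 genes were called when 1 mouse was left out, 1 with library weights (*Pfkfb3* -1.30, limma adjusted p = 0.0556) and 0 in the 6 mice with both tissues and a replicate block. With all libraries and the mouse as a block, *Pfkfb1* (-1.80, limma adjusted p = 0.00148) and *Pfkfb3* (-1.83, adjusted p = 0.0344) passed and no other call changed. The cause of these changes was not tested. The paired fit differs from the main fit in its mice and in its model. Terms for label parity and adipocyte markers were not run for the interaction. Precision is limited by 4 or 5 mice per group and, for *Pfkfb3* in liver, by 28 to 108 reads.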
